A study of Mus musculus with 12 samples.

Results

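Cells take fatty acids from lipoproteins and from the medium through a short chain of proteins, and the 10 mouse genes described here encode members of that chain. They are the lipases Lpl and Lipg, the receptors Cd36, Vldlr and Lrp1, the binding proteins Fabp3, Fabp4 and Fabp5 and the transport proteins Slc27a1 and Slc27a4. They were chosen by name for these roles and found in the count table by Ensembl identifier with the version dropped. All 10 were among the 47937 genes of the table, and 9 of them were among the 11760 genes that passed the filter on low counts. Vldlr did not pass it.

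RNA was sequenced from bone marrow-derived macrophages of C57BL/6 mice, grown for 7 days with the growth factor CSF-1 at 20 ng/ml. All 12 libraries share this background, and they form 4 groups of 3. Resting cells (M0) received no stimulus, and their labels give no time. Activated cells (IFNγ + LPS) received IFNγ at 50 ng/ml and LPS, a bacterial endotoxin, at 20 ng/ml for 18 h. The groups M0 + DGAT1i and IFNγ + LPS + DGAT1i received in addition T863 at 50 μM, an inhibitor of DGAT1, the enzyme that makes triglyceride from diacylglycerol, for 18 h. The labels of 2 libraries carry another number after the letter T and were read as T863, since their source field names T863. The cells were primary cultures, and no genetic change is labelled. The sources do not say whether the libraries of a group came from separate mice or cultures. The p-values measure the spread between these libraries, which may be in part technical.

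Lipoprotein lipase, the product of Lpl, is secreted and frees fatty acids from the triglyceride of lipoproteins, and endothelial lipase, the product of Lipg, acts mainly on their phospholipids. CD36 binds long-chain fatty acids and oxidized lipoproteins, the VLDL receptor and LRP1 take up whole particles, and the fatty acid binding proteins carry fatty acids within the cell. FATP1 and FATP4, the products of Slc27a1 and Slc27a4, couple fatty acid import to acyl-CoA formation. Macrophages are known for strong expression of Lpl, Cd36 and Lrp1.

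The libraries held 4996014 to 6621671 reads in genes, so that 1 CPM (counts per 1000000 reads, here scaled with TMM factors, which correct for differences in RNA composition) stood for 4.28 to 7.58 reads. Macrophage markers were present in every group, with a summed level of 12944 to 14197 CPM in M0, 8225 to 8876 in IFNγ + LPS, 15951 to 17985 in M0 + DGAT1i and 7818 to 8775 in IFNγ + LPS + DGAT1i. Most of the difference in this sum lay in Lyz2, with a mean of 9641 CPM in M0 and 2956 CPM in IFNγ + LPS. Csf1r, Cd68 and Itgam also had lower means in IFNγ + LPS than in M0, whereas Adgre1 (1316 and 2706 CPM in M0 and IFNγ + LPS), Mertk (71.4 and 459 CPM) and Fcgr1 (91.1 and 857 CPM) had higher ones. The activation markers Nos2, Cxcl9 and Il12b had 0 reads in M0 and in M0 + DGAT1i and were present in both activated groups. Of 5 adipocyte markers, Adipoq, Plin1 and Adrb3 had 0 reads in all libraries and the summed level reached at most 0.187 CPM. Muscle markers summed to at most 0.568 CPM, stromal markers to at most 0.211 CPM and lymphocyte markers to at most 0.375 CPM. In such bulk samples fewer cells of a type and less RNA per cell cannot be told apart.

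Sequence before the transcription start, from RefSeq's table for GRCm38.p6, was used here for 6 of the 10 genes. The 250 bases before the start were searched on both strands for AGGTCA, the half-site of nuclear receptors such as PPARγ, for a direct repeat of 2 such half-sites with 1 base between them, which contains the half-site, for TTCNNNGAA, a site type bound by STAT proteins, and for 2 copies of GAAA with 2 bases between them, a core of interferon response elements. The 3 stretches below are shown because Cd36 and Lrp1 were the only genes of the 6 with a match and Fabp3 was the only one of them whose RNA level rose severalfold on activation. Capitals mark the matches, and the Fabp3 stretch stops before its first annotated exon.
Cd36 (chr5:17835897-17836146, minus strand): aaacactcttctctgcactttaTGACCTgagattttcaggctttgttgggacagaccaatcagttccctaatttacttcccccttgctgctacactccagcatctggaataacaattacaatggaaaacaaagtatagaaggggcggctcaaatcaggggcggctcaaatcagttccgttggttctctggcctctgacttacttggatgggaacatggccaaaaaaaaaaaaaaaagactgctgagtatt
Lrp1 (chr10:127621149-127621398, minus strand): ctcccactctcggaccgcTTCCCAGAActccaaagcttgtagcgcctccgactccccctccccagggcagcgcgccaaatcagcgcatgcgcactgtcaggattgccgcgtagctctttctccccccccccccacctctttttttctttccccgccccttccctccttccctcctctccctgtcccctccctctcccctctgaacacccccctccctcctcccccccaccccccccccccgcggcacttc
Fabp3 (chr4:130308488-130308594, plus strand): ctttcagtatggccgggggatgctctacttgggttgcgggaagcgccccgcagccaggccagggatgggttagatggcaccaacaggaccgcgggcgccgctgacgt
Cd36 held 1 half-site, read on the other strand and beginning 228 bases before the start that RefSeq gives, which lies in introns of the longer Cd36 transcripts. A half-site was present in 14% of all 32851 windows of this length. Lrp1 held 1 TTCNNNGAA match beginning 232 bases before its start, as did 7.02% of all windows. The direct repeat was in 0.0335% and the interferon core in 2.98% of all windows, and neither was in a window of the 6 genes. A match of letters is a description of the window and not a binding site.

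Activation divided the uptake genes into a larger set at lower level and a smaller set at higher level. The RNA of Lpl, Cd36, Lrp1, Fabp4, Fabp5 and Slc27a1 fell, and that of Lipg, Fabp3 and, by a small margin, Slc27a4 rose. The rise of Slc27a4 turned into a fall with another scaling, as given below. All 9 tested genes passed an adjusted p of 0.05, 3 higher and 6 lower, by the quasi-likelihood test of edgeR, with p-values adjusted by Benjamini and Hochberg's method over all genes tested. In this comparison 73.3% of all genes passed, 37.1% higher and 36.2% lower, so that the number of uptake genes that passed was near the background. Lipg passed the filter on low counts only through the activated groups, where 5 libraries and no resting one reached its limit, and Fabp3 reached it in every activated library but in 2 of the 6 resting ones. Their places in these counts therefore follow in part from the filter. The median log2 fold change was -0.81 over the 9 genes and 0.0064 over all genes tested. Levels of IFNγ + LPS and M0 did not overlap for 8 of the 10 genes, and for 75.4% of all genes tested. The 10 genes together summed to 9406 to 10075 CPM in M0 and to 3280 to 3544 CPM in IFNγ + LPS. Of the macrophage markers given above, some were lower and some higher in activated cells, and their part in the changes of the uptake genes was not tested.

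With the inhibitor in activated cells, 7 of the 9 genes passed, 5 higher and 2 lower, against 29.8% of all genes (13.5% higher and 16.3% lower), where Lipg, counted among the lower, would not have been tested without the IFNγ + LPS libraries. The groups did not overlap for 7 of the 10 genes, among them Vldlr, which was not tested, and for 39.7% of all genes tested. Cd36, Fabp3, Fabp4, Fabp5 and Slc27a4 rose, and Lpl and Lipg fell. The call of Slc27a4 was lost in several alternatives, as given below. With the inhibitor in resting cells, 4 of 9 passed, against 24.4% of all genes (11.0% higher and 13.4% lower), and the groups did not overlap for 4 of 10, against 37.8%. Here Cd36, Fabp4 and Fabp5 rose and Lpl fell. Both inhibitor comparisons thus held Cd36, Fabp4 and Fabp5 among the genes that rose and Lpl among those that fell, and these comparisons share no libraries. The summed level of the 10 genes was 10477 to 10797 CPM in M0 + DGAT1i and 3432 to 3865 CPM in IFNγ + LPS + DGAT1i.

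**Figure D1:**
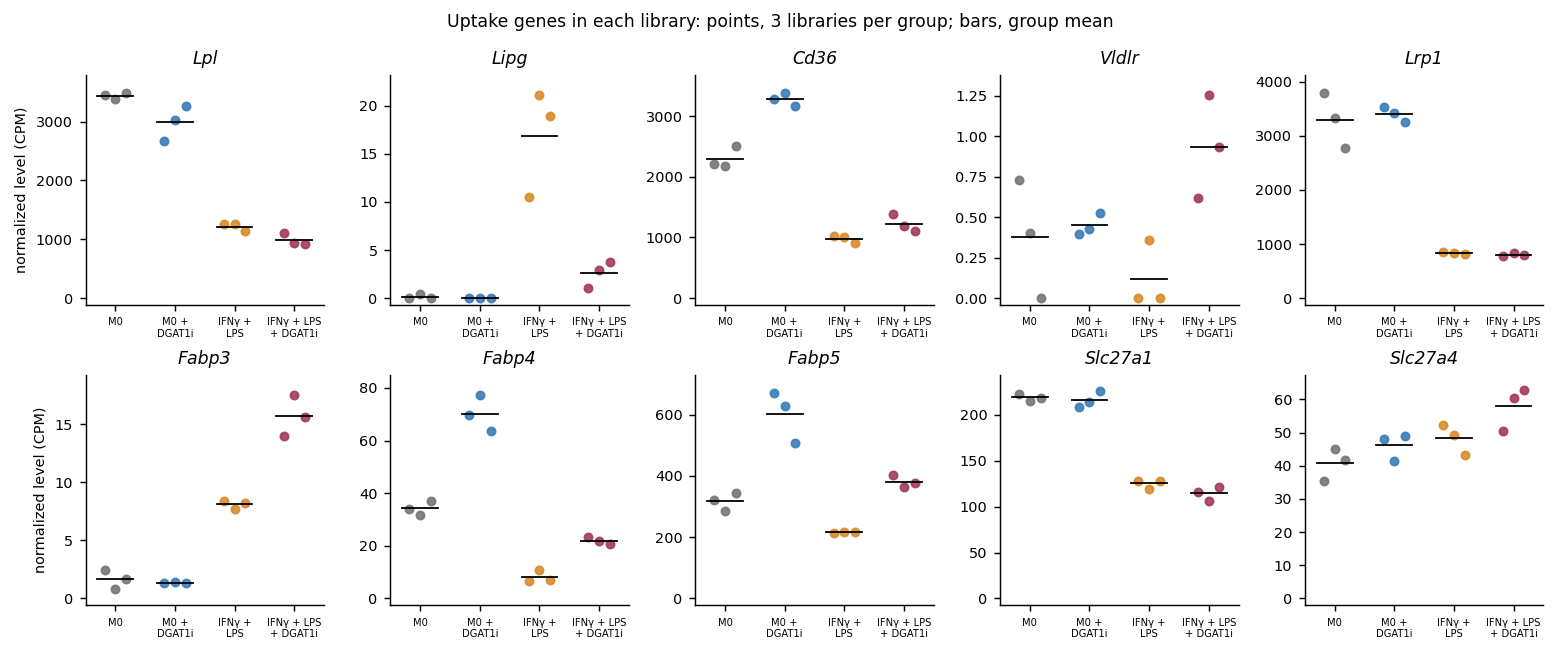
Normalized level in CPM (linear axes from 0) of each of the 10 uptake genes in the 12 libraries. Points are the 3 libraries of a group, in the order of their replicate numbers, and bars are group means. Lpl, Cd36, Lrp1, Fabp4, Fabp5 and Slc27a1 were lower in every IFNγ + LPS library than in every M0 library, while Lipg and Fabp3 were higher.

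Lpl lies at chr8:68880491-68907448 on the plus strand (GRCm38) with 13 merged exons. Its level was 3455, 3385 and 3491 CPM in the 3 M0 libraries and 1256, 1253 and 1134 CPM in IFNγ + LPS. It was 2671, 3027 and 3267 CPM in M0 + DGAT1i and 1100, 941 and 921 CPM in IFNγ + LPS + DGAT1i. The activated libraries were all far below the resting ones, and within each state the inhibitor groups lay lower without overlap. Activation lowered Lpl 2.84-fold (log2 fold change -1.50, SE 0.067, adjusted p = 3.36e-19, edgeR). The inhibitor lowered it 1.23-fold in activated cells (-0.30, SE 0.066, adjusted p = 0.000779, edgeR) and 1.15-fold in resting cells (-0.20, SE 0.065, adjusted p = 0.0192, edgeR). The call in resting cells was lost without M0 replicate 1 (-0.20, adjusted p = 0.0524, edgeR), without M0 replicate 3 (-0.20, adjusted p = 0.0654) and without M0 + DGAT1i replicate 1 (-0.13, adjusted p = 0.154). The other 9 omissions of a single library kept it.

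Lipg, on chromosome 18, was nearly silent in resting cells. Its reads numbered 3 in M0, all in replicate 2, and 0 in the 3 M0 + DGAT1i libraries, which allows up to 0.135 CPM at 3 reads over the group. In IFNγ + LPS the level was 10.5, 21.1 and 18.9 CPM, and in IFNγ + LPS + DGAT1i it was 1.03, 2.92 and 3.74 CPM. Every activated library without the inhibitor was above every library with it. The ratio of reads between IFNγ + LPS and M0, 268 against 3, was 123 after scaling (95% counting interval 41.7 to 601). Reads carry no molecular identifiers, so that such intervals and limits cover counting error only. The inhibitor lowered Lipg 6.82-fold in activated cells by reads, from 268 to 35 (counting interval 4.78 to 10.0). With the inhibitor present, the 35 reads of the activated group stood against 0, at least 18.5-fold higher when the resting group is set at its limit of 3 reads, and the counting interval of the ratio began at 14.3.

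Since Lipg is known from endothelial cells, the 5 endothelial markers were read beside it. Their summed level was 1.31 to 3.06 CPM in M0, 16.1 to 20.9 in IFNγ + LPS, 2.38 to 2.84 in M0 + DGAT1i and 7.82 to 12.6 in IFNγ + LPS + DGAT1i. Kdr and Pecam1 made up nearly all of it in the activated groups, whereas Emcn had 0 reads in all libraries, Tek had 1 read in all and Cdh5 averaged at most 0.450 CPM in any group. The 4 dendritic cell markers summed to 5.62 to 7.16 CPM in IFNγ + LPS and to 1.04 to 1.40 CPM in IFNγ + LPS + DGAT1i, with Xcr1 at a mean of 5.53 and 0.871 CPM and Zbtb46 at 0.635 and 0.355 CPM, against at most 0.696 CPM in the resting groups. The part of these markers in the Lipg values was not tested.

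Among the receptors, Cd36 (chr5:17781690-17888801, minus strand, 17 merged exons) moved against Lpl under the inhibitor. Its level was 2217, 2175 and 2499 CPM in M0, 1020, 1000 and 913 CPM in IFNγ + LPS, 3276, 3384 and 3165 CPM in M0 + DGAT1i and 1381, 1184 and 1106 CPM in IFNγ + LPS + DGAT1i. No groups overlapped within a comparison. Activation lowered it 2.35-fold (log2 fold change -1.23, SE 0.066, adjusted p = 4.54e-17, edgeR). The inhibitor raised it 1.43-fold in resting cells (0.51, SE 0.065, adjusted p = 2.15e-07, edgeR) and 1.25-fold in activated cells (0.32, SE 0.066, adjusted p = 0.000281, edgeR). The ratio of Cd36 to Lpl in CPM was 0.642 to 0.716 in M0 and 0.798 to 0.811 in IFNγ + LPS. It was 0.969 to 1.23 in M0 + DGAT1i and 1.20 to 1.26 in IFNγ + LPS + DGAT1i.

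Lrp1 (chr10:127538161-127621148, minus strand, 88 merged exons), the large endocytic receptor of the LDL receptor family, followed activation and was not shown to follow the inhibitor. Its level was 3786, 3329 and 2775 CPM in M0, 849, 826 and 810 CPM in IFNγ + LPS, 3528, 3421 and 3253 CPM in M0 + DGAT1i and 776, 835 and 804 CPM in IFNγ + LPS + DGAT1i. The 6 activated libraries lay between 776 and 849 CPM, and the 3 M0 libraries spread more widely than those of any other group. Activation lowered Lrp1 3.98-fold (log2 fold change -1.99, SE 0.079, adjusted p = 3.35e-15, edgeR). The inhibitor gave 0.045 in resting cells (95% interval -0.11 to 0.20) and -0.041 in activated cells (-0.20 to 0.12), and neither passed the test (adjusted p = 0.731 and 0.745, edgeR).

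Vldlr (chr19:27216484-27254231, plus strand) was near the limit of detection and was not tested. It had 5, 3 and 0 reads in M0, 0, 2 and 0 in IFNγ + LPS, 3, 3 and 4 in M0 + DGAT1i and 3, 6 and 4 in IFNγ + LPS + DGAT1i. Summed reads of 2 in IFNγ + LPS and 13 with the inhibitor gave a scaled ratio of 7.30 with a counting interval of 1.65 to 66.6. Between M0 and M0 + DGAT1i the ratio was 1.22 (0.433 to 3.55).

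Of the fatty acid binding proteins, Fabp4 and Fabp5 rose with the inhibitor in both states, and in resting cells their rises were larger than those of the other tested uptake genes. Fabp4 (chr3:10204088-10208576, minus strand), the adipocyte and macrophage form, was at 33.9, 31.8 and 36.9 CPM in M0 and at 6.53, 11.0 and 6.93 CPM in IFNγ + LPS. With the inhibitor it was at 69.7, 77.4 and 63.6 CPM in resting cells and at 23.3, 21.9 and 20.5 CPM in activated cells. All 4 groups stood apart from each other. Activation lowered Fabp4 4.14-fold (log2 fold change -2.05, SE 0.14, adjusted p = 1.61e-19, edgeR). The inhibitor raised it 2.05-fold in resting cells (1.04, SE 0.089, adjusted p = 3.24e-14, edgeR) and 2.66-fold in activated cells (1.41, SE 0.16, adjusted p = 2.66e-10, edgeR). Activated cells with the inhibitor thus remained below M0 in every library.

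Fabp5 (chr3:10012548-10016607, plus strand), the epidermal form, which lies on the same chromosome as Fabp4, was at 321, 286 and 344 CPM in M0 and at 213, 217 and 217 CPM in IFNγ + LPS. It was at 672, 629 and 508 CPM in M0 + DGAT1i and at 403, 364 and 376 CPM in IFNγ + LPS + DGAT1i. Activated cells with the inhibitor lay above M0 in every library, unlike for Fabp4. Activation lowered Fabp5 1.47-fold (log2 fold change -0.55, SE 0.094, adjusted p = 9.85e-05, edgeR), and the inhibitor raised it 1.90-fold in resting cells (0.93, SE 0.089, adjusted p = 1.99e-06) and 1.76-fold in activated cells (0.82, SE 0.095, adjusted p = 1.33e-05, edgeR). The ratio of Fabp5 to Fabp4 in CPM was 9.0 to 9.48 in M0 and 7.98 to 9.64 in M0 + DGAT1i, and it was 19.8 to 32.7 in IFNγ + LPS and 16.6 to 18.3 in IFNγ + LPS + DGAT1i. Fabp5 has processed pseudogenes, of which Gm6166 matches 41.2% of its longest coding transcript and Gm14328 41.3% at 95% identity or more. They held 90 and 22 reads over all 12 libraries, against at least 1013 reads of Fabp5 in each library, and how reads shared between copies were counted is not given in the sources used here.

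Fabp3 (chr4:130308595-130315463, plus strand, 4 merged exons), the heart and muscle form, moved opposite to the other binding proteins on activation. Its level was 2.47, 0.799 and 1.67 CPM in M0 and 8.42, 7.74 and 8.24 CPM in IFNγ + LPS. It was 1.33, 1.42 and 1.32 CPM in M0 + DGAT1i and 14.0, 17.5 and 15.6 CPM in IFNγ + LPS + DGAT1i. The activated groups were above the resting ones and apart from each other, and the 2 resting groups overlapped. Activation raised Fabp3 4.95-fold (log2 fold change 2.31, SE 0.27, adjusted p = 3.23e-11, edgeR). The inhibitor raised it 1.93-fold in activated cells (0.95, SE 0.19, adjusted p = 5.20e-05, edgeR), while in resting cells its change was -0.26 with an interval from -1.0 to 0.48 (adjusted p = 0.679, edgeR). The reads behind these values were few, 35 in M0 and 30 in M0 + DGAT1i, each over 3 libraries.

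Fabp3 shares 81 exon bases with Zcchc17 on the opposite strand. Zcchc17 gave a log2 fold change of -0.11 on activation and of -0.29 with the inhibitor in activated cells, neither past the test (adjusted p = 0.397 and 0.0912, edgeR). Whether the counting used strand is not given. Muscle markers summed to at most 0.467 CPM in the activated groups. Of 6 neutrophil markers the summed level was 9.90 to 14.4 CPM in IFNγ + LPS and 44.4 to 53.9 CPM in IFNγ + LPS + DGAT1i. Most of it was S100a8, with means of 9.13 and 34.5 CPM in these groups. Ngp had means of 1.35 and 9.18 CPM and Ltf of 0.932 and 4.33 CPM, while Elane had 0 reads in both groups. The summed level of the 6 markers was 21.8 to 28.1 CPM in M0 and 16.3 to 20.3 CPM in M0 + DGAT1i. The part of these markers in the Fabp3 values was not tested.

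Of the inhibitor responses of the transport proteins, that of Slc27a4 in activated cells alone passed. Slc27a1 (chr8:71568882-71587302, plus strand, 14 merged exons) was at 223, 215 and 218 CPM in M0, at 128, 120 and 128 CPM in IFNγ + LPS, at 209, 214 and 226 CPM in M0 + DGAT1i and at 116, 106 and 121 CPM in IFNγ + LPS + DGAT1i. The activated libraries lay below all resting ones, and the inhibitor groups overlapped their controls. Activation lowered Slc27a1 1.75-fold (log2 fold change -0.81, SE 0.057, adjusted p = 7.52e-19, edgeR). The inhibitor gave -0.016 in resting cells (95% interval -0.12 to 0.090, adjusted p = 0.871) and -0.13 in activated cells (-0.26 to -0.0057, adjusted p = 0.109, edgeR), and neither passed.

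Slc27a4 (chr2:29802634-29817522, plus strand, 13 merged exons) was at 35.4, 45.0 and 41.6 CPM in M0 and at 52.2, 49.3 and 43.1 CPM in IFNγ + LPS. It was at 48.1, 41.5 and 49.1 CPM in M0 + DGAT1i and at 50.4, 60.5 and 62.8 CPM in IFNγ + LPS + DGAT1i. Groups next to each other in the order of their means overlapped. Its rise on activation was 1.18-fold (log2 fold change 0.24, SE 0.095, adjusted p = 0.0226, edgeR) and turned into a fall of 0.23 on the log2 scale that also passed (adjusted p = 0.0260, edgeR) when libraries were scaled by their totals alone, a scaling that moved the median of all genes to -0.46. The rise was lost with DESeq2 (adjusted p = 0.0771) and without M0 replicate 1 (0.15, adjusted p = 0.175), IFNγ + LPS replicate 1 (0.19, adjusted p = 0.114) or IFNγ + LPS replicate 2 (0.23, adjusted p = 0.0694). The rise with the inhibitor in activated cells (0.26, SE 0.096, adjusted p = 0.0328, edgeR) was lost with DESeq2 (adjusted p = 0.0838), with no filter on low counts (0.0751) and without IFNγ + LPS replicate 2 (0.28, adjusted p = 0.0638) or 3 (0.18, adjusted p = 0.210) or IFNγ + LPS + DGAT1i replicate 2 (0.22, adjusted p = 0.136) or 3 (0.20, adjusted p = 0.178). In resting cells its change of 0.18 did not pass (adjusted p = 0.147, edgeR).

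**Figure D2:**
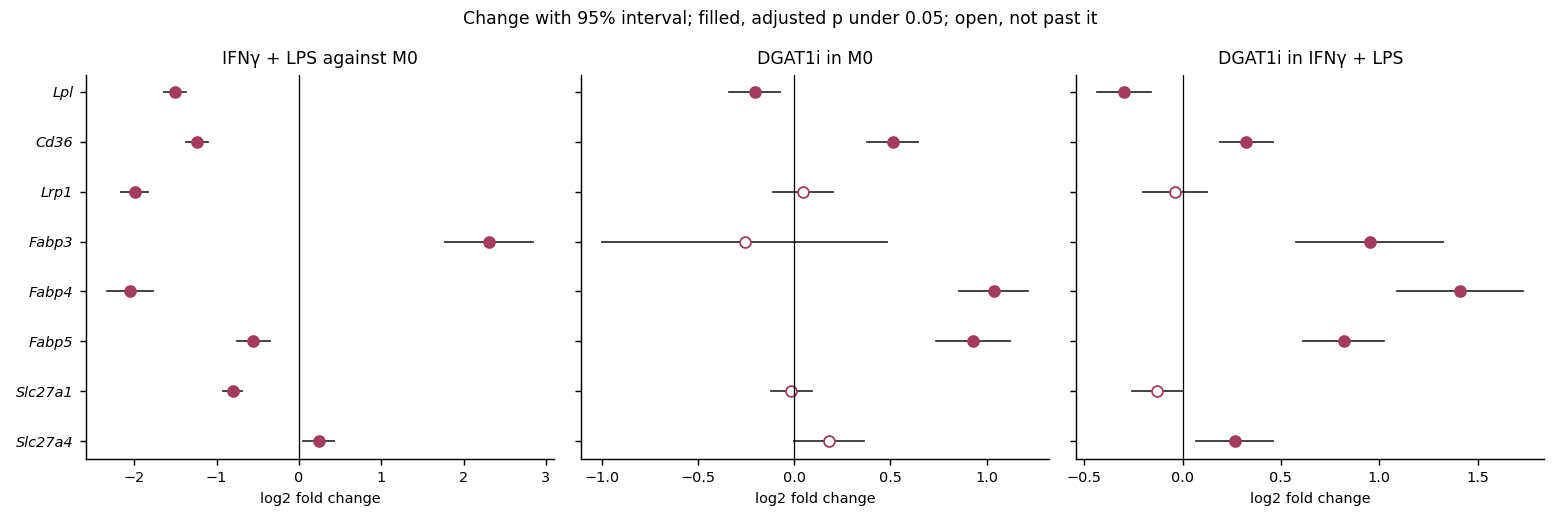
Log2 fold change with its 95% interval (horizontal axes, which differ between the 3 panels) of 8 uptake genes. Filled points passed an adjusted p of 0.05 and open points did not. Lipg is left out because of its 3 reads in M0, and Vldlr was not tested. Fabp3 and Slc27a4 alone lie to the right in the first panel, and Slc27a4 turns to -0.23 there when libraries are scaled by their totals alone.

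Activation was also compared with the inhibitor present in both groups. All 9 genes passed in the same directions as without it, against 70.6% of all genes (35.3% higher and 35.3% lower). Here too Lipg and Fabp3 count as higher after passing the filter on low counts, whose limit they reached in none of the M0 + DGAT1i libraries, so that their calls follow in part from the filter. The groups overlapped for none of the 10 genes, whereas 72.5% of all genes tested had no overlap. The 10 include Vldlr, which was not tested and had 3 to 4 reads per library against 3 to 6. Its groups stand apart only after scaling, and the counting interval of its ratio was 0.837 to 5.26. The log2 fold changes were -1.60 for Lpl, -1.42 for Cd36, -2.08 for Lrp1, -1.68 for Fabp4, -0.66 for Fabp5 and -0.92 for Slc27a1, with SEs of 0.059 to 0.10. Fabp3 rose 11.4-fold (3.52, SE 0.24, adjusted p = 3.92e-19, edgeR). Slc27a4 rose by 0.32 (SE 0.092, adjusted p = 0.00200, edgeR), and this turned to -0.10 when libraries were scaled by their totals alone, which moved the median of all genes to -0.43.

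Whether the inhibitor acted differently in the activated and the resting state was tested as the difference between its 2 log2 fold changes. Of 9 genes 1 passed, Fabp3, against 18.5% of all genes (8.66% with a greater and 9.80% with a lesser value in activated cells). Fabp3 passed the filter on low counts through the activated groups, where it was higher, and reached its limit in 2 of 3 M0 and 0 of 3 M0 + DGAT1i libraries. Its call therefore follows in part from the filter. The response of Fabp3 was 1.21 greater in activated cells on the log2 scale (SE 0.42, adjusted p = 0.0334, edgeR). The call rested on few reads and was lost with DESeq2 (adjusted p = 0.0544), with no filter on low counts (adjusted p = 0.0621) and without any of 7 single libraries. These were M0 replicate 1 (0.81, adjusted p = 0.275), M0 replicate 3 (1.19, 0.0705), IFNγ + LPS replicate 2 (1.17, 0.0578), each of the 3 M0 + DGAT1i libraries (1.19 to 1.24, adjusted p of 0.0545 to 0.0638) and IFNγ + LPS + DGAT1i replicate 2 (1.12, 0.0681).

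For Fabp4 the difference was 0.37 (95% interval 9.8e-05 to 0.75, adjusted p = 0.164, edgeR), and it passed without IFNγ + LPS replicate 2 (0.66, adjusted p = 0.0211), the library with the highest Fabp4 of its group. For Cd36 it was -0.19 (-0.38 to 0.00094, adjusted p = 0.166, edgeR), and it passed with no filter on low counts (-0.22, adjusted p = 0.0444) and without M0 replicate 3 (-0.25, adjusted p = 0.0355) or IFNγ + LPS + DGAT1i replicate 1 (-0.28, adjusted p = 0.00822). For Fabp5 the difference was -0.11 (-0.39 to 0.17), for Lpl -0.094 (-0.28 to 0.095), for Lrp1 -0.086 (-0.31 to 0.14), for Slc27a1 -0.12 (-0.28 to 0.049) and for Slc27a4 0.082 (-0.18 to 0.35), none past the test. Lipg, with 3 reads or fewer in each resting group, holds no information on this difference.

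**Figure D3:**
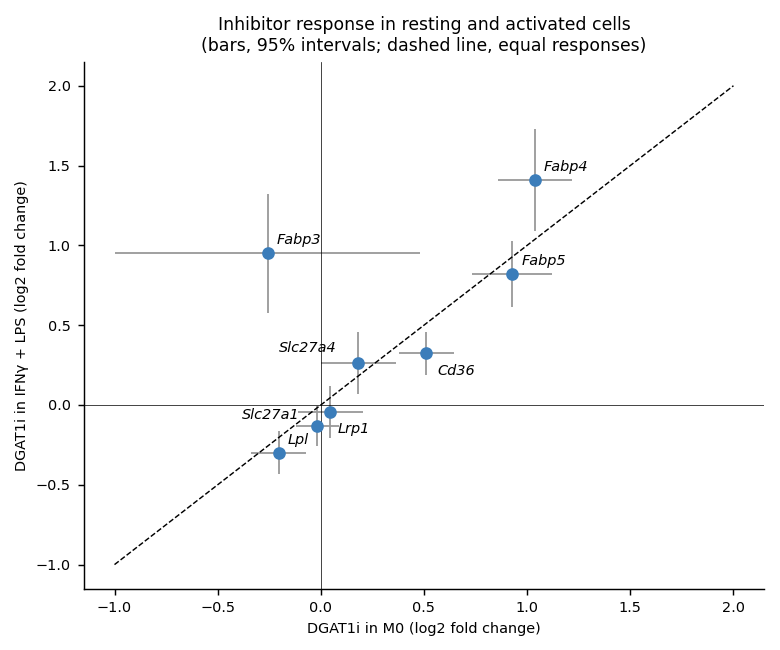
Log2 fold change with the inhibitor in resting cells (horizontal axis) and in activated cells (vertical axis) of 8 uptake genes, with 95% intervals. On the dashed line the responses are equal. Fabp3 lies above the line by 1.21, Fabp4 and Fabp5 lie to the upper right, and Lrp1 and Slc27a1 lie near 0.

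Levels between genes were compared per kilobase. Merged exons of all annotated transcripts gave one length, and the longest protein-coding transcript gave the other, added after the values were seen, because the merged length of Fabp4 (4489 bases) and of Fabp5 (3567 bases) far exceeds that of their coding transcripts (896 and 987 bases). Per kilobase of coding transcript in M0, the level was 837 ± 13.1 CPM per kb for Lpl, 676 ± 51.7 for Cd36, 321 ± 29.2 for Fabp5, 221 ± 34.0 for Lrp1, 78.3 ± 1.41 for Slc27a1, 38.2 ± 2.85 for Fabp4, 10.0 ± 1.20 for Slc27a4 and 2.00 ± 1.02 for Fabp3 (SD, n = 3). No neighbours in this order overlapped. Vldlr at 0.0471 and Lipg at 0.0352 CPM per kb came last, and these 2 did overlap.

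In IFNγ + LPS the same order held down to Slc27a1, but Lpl at 295 ± 17.0 and Cd36 at 288 ± 16.6 CPM per kb overlapped. Fabp3 at 9.88 ± 0.429 and Fabp4 at 9.09 ± 2.75 CPM per kb also overlapped. In M0 + DGAT1i Cd36 led at 964 ± 32.2 CPM per kb, ahead of Lpl at 726 ± 72.9 and Fabp5 at 611 ± 86.6, which overlapped. In IFNγ + LPS + DGAT1i Fabp5 at 386 ± 19.9 and Cd36 at 360 ± 41.7 CPM per kb overlapped and lay above Lpl at 240 ± 23.8. Per kilobase of merged exons Cd36 led in all 4 groups, with 640, 272, 912 and 341 CPM per kb in M0, IFNγ + LPS, M0 + DGAT1i and IFNγ + LPS + DGAT1i.

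The 3 binding proteins together held 16.5% ± 0.931 (SD, n = 3) of the summed level per kb of the 10 genes in M0, 25.4% ± 1.06 in IFNγ + LPS, 25.6% ± 2.96 in M0 + DGAT1i and 37.7% ± 1.15 in IFNγ + LPS + DGAT1i, by the length of the coding transcript. By merged exons these shares were 7.57%, 13.3%, 11.5% and 20.3%. The summed level of the 3 genes itself was lower in IFNγ + LPS (228 to 236 CPM) than in M0 (319 to 382 CPM), and it was 573 to 743 CPM in M0 + DGAT1i and 404 to 440 CPM in IFNγ + LPS + DGAT1i. The share was lowest in M0 and highest in activated cells with the inhibitor by both lengths.

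**Figure D4:**
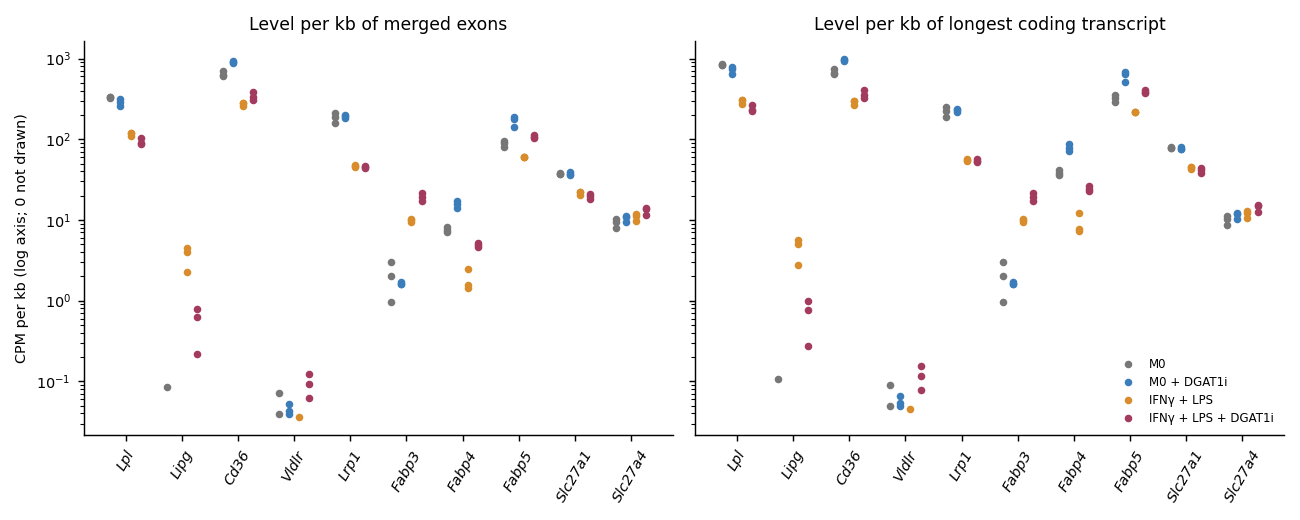
Level of the 10 uptake genes in CPM per kb (log axis, values of 0 not drawn) by the length of merged exons (left) and of the longest coding transcript (right). Points are single libraries, coloured by group. Fabp4 and Fabp5 move up relative to the other genes in the right panel, where Lpl leads in M0 at 837 CPM per kb.

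The genes most like each uptake gene over the 12 libraries were found among at least 7367 well-expressed genes by Pearson's r of log2 CPM. The libraries form 4 groups, so that r mostly describes the pattern of the group means, and it is given with no test. The pattern of Fabp4 was most like that of Cd68, a macrophage lysosomal protein (r = 0.99), and of Rxra, the retinoid X receptor that partners with PPARs (r = 0.98). Cd36 was most like Atp6v0d2, a subunit of the lysosomal proton pump, and Ctsl, the lysosomal protease cathepsin L (r = 0.99 for both). Lrp1 was most like the lysosomal mannosidase Man2b1 and the laminin gene Lama3 (r = 0.99 for both), and Fabp5 was most like the amino acid transporter gene Slc43a2 and the lysosomal membrane protein gene Cd63 (r = 0.97 for both). Lpl was most like Itsn1 and Abcb1b, and Slc27a1 most like Rab3gap2 and Hadh, all with r of 0.99 or more. Lipg was most like Myo1c and Frmd4a (r = 0.99 for both), but with 3 reads in the 6 resting libraries its log2 CPM there is largely set by the prior count of 2. Fabp3 was most like Khnyn and Plekhg1 (r = 0.99 for both). Slc27a4 had the loosest match, with r = 0.93 for Rps6kb2 and 0.91 for Zbtb37.

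Related genes were counted in 6 lists with 68 genes in all, of which 42 were tested. On activation 18 of the 42 passed higher and 17 lower, and their median log2 fold change was 0.071. With the inhibitor 14 passed higher and 10 lower in activated cells, and 11 higher and 7 lower in resting cells. Over all genes tested 37.1% passed higher and 36.2% lower on activation. With the inhibitor these shares were 13.5% and 16.3% in activated cells and 11.0% and 13.4% in resting cells. The counts of each list below stand beside the same shares.

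Among 17 partners of the lipases, 7 were tested. On activation 1 passed higher and 5 lower, and the median was -0.48. Angptl4, whose product inhibits lipoprotein lipase, lay below the level set for naming genes and is named after its values were seen. Its reads numbered 77 in M0 and 2 in IFNγ + LPS, a ratio of 27.9 after scaling (95% counting interval 7.47 to 235), and it passed the filter on low counts through the resting libraries. With the inhibitor in resting cells Angptl4 rose 2.00-fold, from 3.56 ± 0.636 to 7.16 ± 1.00 CPM (SD, n = 3; adjusted p = 0.000545, edgeR). Lmf2, which encodes a relative of the lipase maturation factor, fell 1.50-fold on activation, from 53.8 ± 1.06 to 35.7 ± 2.69 CPM (SD, n = 3). Apoe, a ligand of lipoprotein receptors, fell 1.43-fold on activation. Furin, a protease that cleaves these lipases and their inhibitors, rose 1.19-fold on activation and 1.50-fold with the inhibitor in activated cells. Gpihbp1, which anchors lipoprotein lipase on endothelium, did not reach the filter on low counts.

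Of 16 genes of the LDL receptor family and its adaptors, 13 were tested, and 6 passed higher and 4 lower on activation. Dab2, a clathrin adaptor for these receptors, fell 33.9-fold from 877 ± 61.9 to 25.6 ± 5.78 CPM (SD, n = 3), which is a far larger fall than that of Lrp1. Lrp5, a Wnt co-receptor, fell 3.92-fold, while Lrp10 rose 2.34-fold. With the inhibitor in activated cells 5 passed higher and 1 lower, among them Lrp8, the receptor of apolipoprotein E and reelin, at 2.45-fold. In resting cells 4 passed higher and 2 lower, and Mylip, the ubiquitin ligase that marks LDL receptors for degradation, rose 1.68-fold.

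All 8 scavenger receptors of lipoproteins were tested, and 4 passed higher and 3 lower on activation. Marco and Olr1, both among the higher, passed the filter on low counts through the activated libraries. Their calls on activation therefore follow in part from the filter. Olr1 had 2, 2 and 0 reads in M0. Marco went from 1 read in all of M0 to 142, 78.5 and 167 CPM in IFNγ + LPS, and it was at 50.8, 19.2 and 33.9 CPM with the inhibitor. Cxcl16, which also acts as a chemokine, rose 17.0-fold, whereas Stab1 fell 5.45-fold and Scarb1, the HDL receptor, fell 3.44-fold. With the inhibitor in activated cells 4 passed higher and 3 lower, and in resting cells 2 higher and 1 lower, with Msr1, the class A scavenger receptor, rising 1.53-fold in resting cells. In activated cells Msr1 fell 1.19-fold with the inhibitor, and the difference between its responses passed (-0.87 on the log2 scale, adjusted p = 2.54e-13, edgeR).

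Of 11 other fatty acid binding and transport proteins only Slc27a3 and Fabp7 were tested. Fabp7, the brain form, stayed low, at 2.16 ± 1.07 CPM in M0, 3.60 ± 0.944 in IFNγ + LPS, 4.57 ± 1.32 in M0 + DGAT1i and 6.65 ± 1.50 in IFNγ + LPS + DGAT1i (SD, n = 3), and its rise passed on activation without the inhibitor, where the groups overlapped, and with the inhibitor in both states. On activation with the inhibitor present its change of 0.52 did not pass (adjusted p = 0.0686, edgeR). Of 7 acyl-CoA synthetases and acyl-CoA binding proteins 5 were tested, and on activation 2 passed higher and 2 lower. Acsl1, which activates long-chain fatty acids, rose 47.1-fold from 46.7 ± 0.296 to 2198 ± 75.0 CPM (SD, n = 3), while Acsl3 fell 7.89-fold and Dbi, the acyl-CoA binding protein, fell 2.97-fold. With the inhibitor in activated cells 1 passed higher, Dbi, and 2 lower, including Acsl1, which fell 1.37-fold.

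Of 9 lipid-sensing nuclear receptors and partners 7 were tested, and 4 passed higher and 3 lower on activation. Pparg, which encodes the receptor best known for driving Cd36 and Fabp4, was at 41.6, 47.7 and 45.5 CPM in M0 and at 8.21, 11.5 and 9.37 CPM in IFNγ + LPS. It was at 37.2, 38.0 and 39.1 CPM in M0 + DGAT1i and at 3.71, 6.68 and 6.77 CPM in IFNγ + LPS + DGAT1i. Pparg RNA thus fell 4.59-fold on activation. With the inhibitor it fell 1.18-fold in resting cells (adjusted p = 0.0473, edgeR) and 1.72-fold in activated cells (adjusted p = 0.00207, edgeR). Cd36 and Fabp4 rose with the inhibitor in both states, and the part of Pparg in their levels was not tested. Rxra fell 1.82-fold on activation and rose with the inhibitor, 1.44-fold in resting and 1.46-fold in activated cells. Nr1h3, which encodes the oxysterol receptor LXRα, rose 6.89-fold on activation and fell 2.42-fold with the inhibitor in activated cells.

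**Figure D5:**
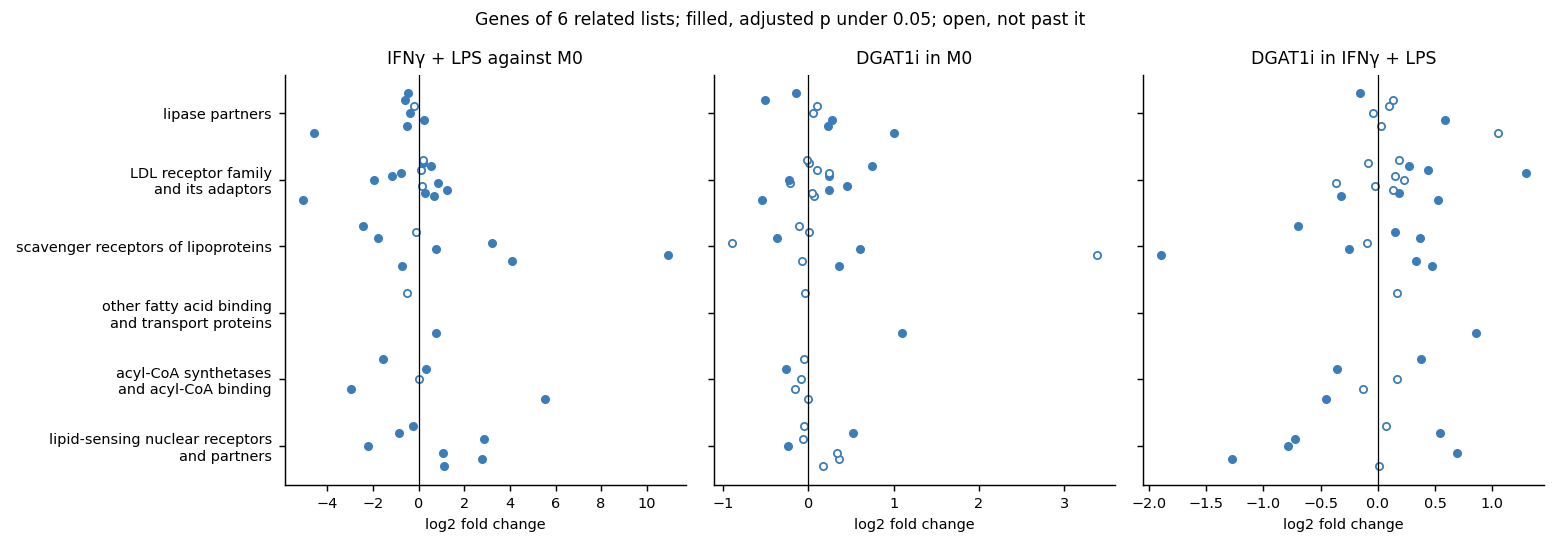
Log2 fold change (horizontal axes, which differ between the 3 panels) of the 42 tested genes of 6 related lists. Each point is a gene, filled where it passed an adjusted p of 0.05. On activation genes of every list but the fatty acid binding and transport proteins passed in both directions, with Dab2 farthest to the left. Marco is drawn farthest to the right, but its place is not exact, since M0 held 1 read of it.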

How the data were processed

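Whole-number read counts per gene were deposited by the authors as 1 table of 12 libraries. The submitters' processing notes name the build GRCm38 and the tool DESeq2. No aligner, counter, annotation release or strand setting is stated in the sources used here. Labels and methods name different library kits. All further steps were made here. Identifiers were matched to GENCODE M21 with the version dropped (47310 of 47937), and BLAST 2.17.0 searched transcripts for copies of the genes. Counts were filtered with filterByExpr, scaled with TMM and fitted with edgeR 4.0.16 (R 4.3.3) by the robust quasi-likelihood method, with 1 mean per group over all 12 libraries and Benjamini-Hochberg adjustment over 11760 genes, at a threshold of 0.05. DESeq2 1.42.0, other scalings and filters, a threshold of 0.1, fits of only the libraries compared, a replicate block and the omission of each library were alternatives. The code was tested on simulated data. Depth was 4996014 to 6621671 reads per library, and no pair of libraries of a group agreed within sampling noise. Figures were drawn with matplotlib 3.10.9.

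The uptake genes, the 6 related lists and the marker lists were chosen with earlier results of these data known. Named genes were all 10 uptake genes, from each list the 2 largest increases and 2 largest decreases past the threshold at an average log2 CPM of at least 2 (a selection of these is printed), and the 2 genes most like each tested uptake gene at an average log2 CPM of at least 4. Gpihbp1 and Slc27a3, values of genes in comparisons beyond that rule, and Zcchc17 were named after their values were seen.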

Additional observations from a re-analysis of the deposited data

Results flagged for a closer look

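The response of Fabp3 to the inhibitor differed between activated and resting cells by 1.21 on the log2 scale, by the test of the difference itself. Fabp3 passed the filter on low counts through the activated groups, where it was higher, so that this call follows in part from the filter. The level rose from 8.14 ± 0.353 to 15.7 ± 1.76 CPM (SD, n = 3) in activated cells, while it was 1.65 ± 0.836 CPM in M0 and 1.36 ± 0.0554 CPM in M0 + DGAT1i. The difference passed with edgeR (adjusted p = 0.0334) and did not pass with DESeq2 (adjusted p = 0.0544), with no filter on low counts (adjusted p = 0.0621) or without any of 7 single libraries, and without M0 replicate 1 it was 0.81 (adjusted p = 0.275).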

How the results depend on the processing

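Of 887 refitted values of single genes over the alternatives, 851 kept their direction and their side of the threshold, 22 lost and 4 gained a call and 10 changed sign, and of 301 counts 283 stayed within 1.5 times. The sign changed with scaling by library totals alone for Slc27a4 on activation (-0.23, past the threshold, without and -0.10, not past it, with the inhibitor) and for Lrp1 with the inhibitor in resting cells (-0.013). It changed with DESeq2 for the difference of Lipg (-0.24). Omitting 1 library changed the sign of the inhibitor's effect in resting cells for Fabp3 (range -0.60 to 0.14, the latter without M0 replicate 1), Lrp1 (-0.066 to 0.16, the former without M0 replicate 3) and Slc27a1 (-0.050 to 0.0091, the latter without M0 + DGAT1i replicate 1). It also changed the sign of the difference between responses for Slc27a4 (-0.00036 to 0.17, the former without M0 replicate 2), Lrp1 (-0.20 to 0.022, the latter without M0 replicate 3) and Lipg (-0.11 to 0.71, the former without IFNγ + LPS + DGAT1i replicate 3). Of these values only those of Slc27a4 on activation, with and without the inhibitor, had passed the test. Without M0 replicate 2 both resting groups have 0 reads of Lipg, and its change in resting cells and its difference have no value. The cause of these changes was not tested.

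The count of uptake genes past the threshold for the difference between responses, 1 higher and 0 lower, became 0 higher and 1 lower (Cd36) with no filter on low counts, and 0 higher with DESeq2. Omitting single libraries gave 0 to 1 higher and 0 to 1 lower for the difference, and 0 to 1 lower with the inhibitor in resting cells. By the longest coding transcript, an alternative chosen after seeing the data, the share of the summed level per kb held by the binding proteins moved from 7.57% to 16.5% in M0, from 13.3% to 25.4% in IFNγ + LPS, from 11.5% to 25.6% in M0 + DGAT1i and from 20.3% to 37.7% in IFNγ + LPS + DGAT1i.

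Same-numbered libraries deviated together weakly at most, with correlations of -0.022 to 0.069 over 18 pairs, against -0.058 to 0.038 for other pairs. Yet 9 of 12 libraries matched best with a library of their own number, a hint from the data and not from the design. The numbers were not treated as pairs. A replicate block gave 8635 calls on activation, 3568 and 2959 with the inhibitor in activated and resting cells, and 2268 for the difference, and changed no call of an uptake gene. Depth limits Vldlr, Lipg outside IFNγ + LPS and Fabp3 in resting cells most, which rest on 0 to 35 reads per group.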
